A study of Mus musculus with 18 samples.

Results

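The 10 genes described here, whose proteins act on stalled ribosomes, were followed through RNA, ribosome footprints and transcript isoforms: Gtpbp1, Gtpbp2, Hbs1l, Pelo, Abce1, Nemf, Ltn1, Znf598 (Zfp598 in the mouse annotation), Ascc3 and Ascc2. They were chosen by their known roles in ribosome rescue and the steps around it, and with earlier results of these data known. All 10 are present among the 54752 genes of the RNA files and the 22523 genes of the footprint files. The study made RNA-seq and ribosome profiling libraries from mouse cerebellum, to ask how loss of Gtpbp1 compares with loss of its relative Gtpbp2. Mice were 3 weeks old and of strain C57BL/6J (B6J), labelled "Wildtype", "Gtpbp1 -/-" or "Gtpbp2 -/-", with 3 RNA and 3 footprint libraries per genotype. The 9 RNA libraries are listed as Batch 1 and the 9 footprint libraries as Batch 2.

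All 3 groups carry the B6J form of n-Tr20, a brain-enriched tRNA-Arg-UCU gene whose mutation hinders processing of the tRNA, so B6J here means wild type at Gtpbp1 and Gtpbp2 on that tRNA background. In the Gtpbp1-/- mice a PGK-Neo cassette takes the place of part of exon 3 and the whole of exon 4. The Gtpbp2-/- mice carry nmf205, a chemically induced null allele that changes the donor splice site following exon 6. Each RNA library holds 37794598 to 52114400 estimated counts and each footprint library 3630823 to 10442573 counts on coding sequence, so footprint values of single genes are the less precise.

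Ribosome rescue starts when a ribosome stops on an mRNA. Gtpbp1 and Gtpbp2 are GTPases related to the elongation factor eEF1A, and Hbs1l is another relative that brings Pelo to ribosomes with an empty A site. Abce1 splits the subunits, after which Nemf and Ltn1 act on the peptide held by the large subunit, while Znf598 marks collided ribosomes for the complex that holds Ascc3 and Ascc2.

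Some libraries stand apart from others of their group. The male transcript Ddx3y shows that among RNA libraries B6J replicate 2 and Gtpbp1-/- replicates 1 and 2 came from males, among footprint libraries B6J replicates 1 and 2 and Gtpbp1-/- replicate 1, and that all Gtpbp2-/- libraries came from females. A footprint library and an RNA library of the same number are therefore not always the same mouse. The 5 choroid plexus markers, summed, reached 3330, 2190 and 454 TPM (an RNA level scaled to transcript length and to the library's total) in B6J, 3720, 2780 and 790 in Gtpbp1-/- and 129, 2260 and 1470 in Gtpbp2-/-. In footprints the same sum was 5680, 3800 and 62.7 CPM (counts scaled to the library's normalized total) in B6J, 13700, 207 and 12300 in Gtpbp1-/- and 494, 9490 and 9650 in Gtpbp2-/-. Ttr was the most abundant of the 5 in RNA and in footprints, 1 of the 5 was at 0 in footprints of B6J replicate 3 and Gtpbp1-/- replicate 2, and groups overlap in both assays. How much choroid plexus was dissected with each cerebellum was not tested.

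In B6J, RNA of the 10 genes ordered by mean TPM was Gtpbp2 (102), Abce1 (79.8), Nemf (64.7), Hbs1l (59.5), Gtpbp1 (40.8), Zfp598 (28.0), Ltn1 (27.0), Ascc3 (13.4), Pelo (9.83) and Ascc2 (9.68). Libraries of Zfp598 and Ltn1 overlap, as do those of Pelo and Ascc2. The order depends on which transcripts are counted. By kallisto's estimates, transcripts annotated as protein-coding held 38.7% of the TPM of Gtpbp2, 62.5% of that of Zfp598, 73.9% of Hbs1l and 89.9% of Gtpbp1, and on coding TPM Gtpbp2 (39.1) stands below Abce1 (70.9), Nemf (49.6) and Hbs1l (44.0). Footprints per kilobase of coding sequence gave another order. Abce1 had a mean of 51.9 CPM per kb and Gtpbp1 41.2, with overlapping libraries, then came Nemf (19.6), Ltn1 (18.3), Gtpbp2 (18.1), Pelo (16.7), Zfp598 (16.2) and Hbs1l (11.2), each overlapping the next, and last Ascc2 (6.65) and Ascc3 (4.17).

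The comparisons ask whether the other rescue factors differ in level where Gtpbp1 or Gtpbp2 is lost. A gene is called here when its adjusted p (the false discovery rate over all genes tested) is under 0.05 in edgeR. Between Gtpbp1-/- and B6J, 3 of the 10 members were called in RNA (2 higher, Gtpbp2 and Abce1, and 1 lower, Gtpbp1), where 13.8% of all 24577 genes tested were called. Without B6J replicate 2 only Gtpbp1 was called among them. Gtpbp1 is the gene disrupted in Gtpbp1-/-, so its calls there, in RNA and in footprints, are no result about the other factors. Between Gtpbp2-/- and B6J edgeR called 0 of the 10, where 8.63% of 24859 genes were called. There 1 of the 10 had an unadjusted p under 0.05 (Gtpbp2) and DESeq2 also called 0. In footprints 1 of the 10 was called in Gtpbp1-/- (Gtpbp1, lower), against 0.745% of 13956 genes, and edgeR called 0 in Gtpbp2-/-, against 2.94% of 13797 genes (1 of the 10 at an unadjusted p under 0.05, Gtpbp1, and 0 called by DESeq2). Both comparisons use the same B6J libraries, so their values are not independent.

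Gtpbp1 lost part of its RNA and most of its footprints in its own mutant. Gtpbp1 RNA was 70.7, 77.6 and 66.5 CPM in B6J, 44.2, 41.7 and 43.8 in Gtpbp1-/- and 58.8, 72.3 and 65.8 in Gtpbp2-/-. Footprints on Gtpbp1 were 73.9, 116 and 85.6 CPM in B6J, 31.7, 25.4 and 36.1 in Gtpbp1-/- and 79.3, 66.2 and 61.8 in Gtpbp2-/-. In CPM all 3 Gtpbp1-/- libraries lie below all 6 others in both assays. In RNA TPM, which divides by the length of the transcripts, they overlap both other groups, at 43.5, 38.4 and 40.4 in B6J, 34.5, 35.1 and 41.1 in Gtpbp1-/- and 40.3, 43.2 and 39.9 in Gtpbp2-/-. RNA fell by 0.73 on the log2 scale against B6J (SE 0.0818, edgeR adjusted p 5.94e-05), but with an offset for the mean effective length of the transcripts, which was 2240 bases against 3030 in B6J, the change was -0.31 and was not called (adjusted p 0.0811, range over the 14 alternatives 2.76e-13 to 0.0811). Footprints fell by 1.57 (SE 0.227, adjusted p 0.00676) and were called in all 12 alternatives. In Gtpbp2-/-, Gtpbp1 was not called in RNA (log2 fold change -0.13, adjusted p 0.473) or in footprints (-0.41, adjusted p 0.288, and -0.20 without B6J replicate 2). Where along Gtpbp1 the reads of its own mutant fall was not tested. RNA from an overlapping gene on the opposite strand, Gm26884 (mean TPM 0.188 in B6J, 1.56 in Gtpbp1-/- and 0.206 in Gtpbp2-/-), cannot be told apart from that of Gtpbp1 where exons overlap, since the libraries are unstranded.

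Gtpbp2 RNA was 85.6, 73.8 and 87.8 CPM in B6J, 109, 101 and 104 in Gtpbp1-/- and 65.6, 75.5 and 72.9 in Gtpbp2-/-. All Gtpbp1-/- libraries lie above all others, and Gtpbp2-/- overlaps B6J. In TPM, which divides by the shorter effective length, Gtpbp2 was 114, 91.7 and 99.0 in B6J, 139, 160 and 162 in Gtpbp1-/- and 127, 145 and 151 in Gtpbp2-/-, so both mutants lie above B6J and overlap each other. The rise in Gtpbp1-/- was 0.34 on the log2 scale (SE 0.0828, edgeR adjusted p 0.0154). It was not called without B6J replicate 2 (0.26, adjusted p 0.066) or without Gtpbp1-/- replicate 1 (0.31, adjusted p 0.0647), and over the 14 alternatives it ranged from 0.26 to 0.43, with adjusted p from 0.00125 to 0.066. In Gtpbp2-/- the change was -0.22 and was not called (adjusted p 0.19), and it turned to 0.32 with the offset for effective length (adjusted p 0.122, range over alternatives 0.00967 to 0.396). With counts of protein-coding transcripts alone, which weigh long transcripts more, it was called, at -0.61 (edgeR adjusted p 0.00967, the lower end of that range). In TPM those transcripts averaged 39.1 in B6J (SD 2.21) and 36.1 in Gtpbp2-/- (SD 6.96). The mean effective length of Gtpbp2 transcripts was 1400 bases in B6J, 1300 in Gtpbp1-/- and 965 in Gtpbp2-/-.

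Footprints on Gtpbp2 were 44.9, 36.0 and 38.8 CPM in B6J, 35.9, 43.1 and 59.2 in Gtpbp1-/- and 28.9, 26.2 and 7.51 in Gtpbp2-/-. Gtpbp1-/- overlaps B6J (log2 fold change 0.21, edgeR adjusted p 0.769). Gtpbp2-/- lies below B6J in all 3 libraries, but the change of -0.97 was not called (SE 0.443, adjusted p 0.321), and without Gtpbp2-/- replicate 3, the lowest library, it was -0.53 (range of adjusted p over alternatives 0.114 to 0.805).

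**Figure D1:**
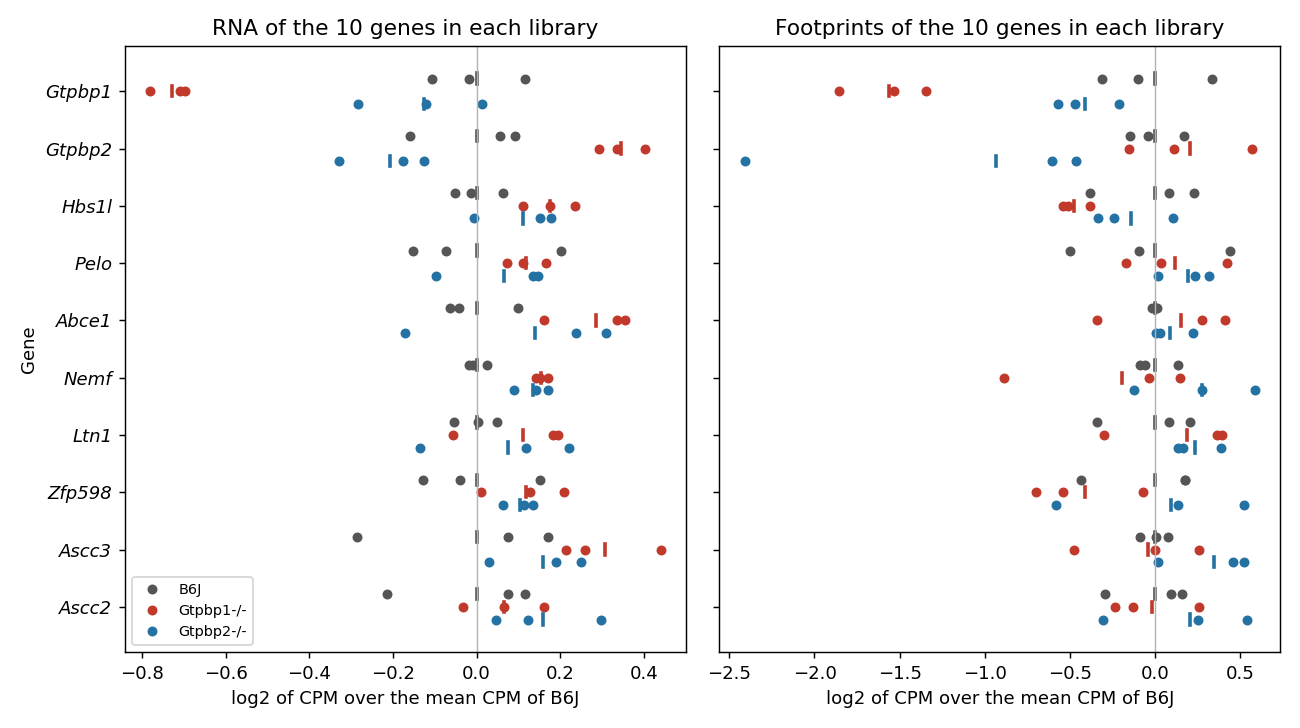
Log2 of RNA CPM (left) and footprint CPM (right) over the B6J mean for the 10 genes in the 3 genotypes (1 point per library, vertical bars at group means). Of the changes against B6J, edgeR called RNA of Gtpbp1, Gtpbp2 and Abce1 and footprints of Gtpbp1 in Gtpbp1-/-. The lower Gtpbp2 RNA of Gtpbp2-/-, not called, turns to higher with an offset for effective length. It is called lower (-0.61) with counts of protein-coding transcripts alone, whose mean TPM was 39.1 in B6J and 36.1 in Gtpbp2-/-.

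Ratios of footprints to RNA (translation efficiency, TE) give the step after RNA. For Gtpbp1 the log2 ratio of group means was 0.36 in B6J, -0.48 in Gtpbp1-/- and 0.07 in Gtpbp2-/-, and for Gtpbp2 it was -1.05, -1.19 and -1.78. The change for Gtpbp1 in Gtpbp1-/- was -0.83 (edgeR adjusted p 0.474) and that for Gtpbp2 in Gtpbp2-/- -0.77 (adjusted p 0.537), which ran from -1.22 without Gtpbp2-/- footprint replicate 1 to -0.35 without Gtpbp2-/- footprint replicate 3. In TE edgeR called 0 of the 10 members in either mutant, against 0% of 13086 genes for Gtpbp1-/- (1170 at an unadjusted p under 0.05, 58 called by DESeq2) and 0.00773% of 12931 genes for Gtpbp2-/- (1554 at an unadjusted p under 0.05, 160 called by DESeq2). Of the 10, 2 (Gtpbp1 and Hbs1l) had an unadjusted p under 0.05 in Gtpbp1-/- and 0 in Gtpbp2-/-, and DESeq2 called 0 in either.

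Transcript estimates divide each gene's reads among isoforms. Their p-values leave out the error of that division, because the files hold no repeated estimates. Gtpbp1-201, the 12-exon coding isoform, was estimated at 31.3, 34.6 and 28.6 TPM in B6J, 21.0, 20 and 20.9 in Gtpbp1-/- and 28.1, 35.9 and 32.0 in Gtpbp2-/-. Its Gtpbp1-/- libraries lie below all others, and it fell by 0.73 in Gtpbp1-/- (SE 0.0987, edgeR adjusted p 0.0381), the only call among 46 transcripts of the members tested there, where 0.715% of 67667 transcripts were called. That call was lost when any of the 6 libraries was left out (adjusted p 0.127, 0.078 and 0.0622 without B6J replicates 1, 2 and 3, and 0.139, 0.199 and 0.142 without Gtpbp1-/- replicates 1, 2 and 3, with log2 fold changes from -0.80 to -0.64). In Gtpbp2-/- edgeR called 0 of 47 transcripts of the members, against 0.144% of 68960 (6521 at an unadjusted p under 0.05). Of the 47, 4 had an unadjusted p under 0.05, all of Gtpbp2, and limma-trend on log2 TPM called 0.

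Gtpbp1-207, a 2-exon retained-intron transcript at chr15:79718911-79720181 near the 3′ end of the gene, was estimated higher in Gtpbp1-/-. Its estimates were 7.83, 1.3 and 3.64 TPM in B6J, 10.4, 9.49 and 12.8 in Gtpbp1-/- and 4.72, 4.91 and 4.56 in Gtpbp2-/-, with Gtpbp1-/- above all others, and the change of 0.76 was not called (edgeR adjusted p 0.809). It was 1.52 without B6J replicate 1, the highest of its group, and 0.33 without B6J replicate 2, the lowest. As a share of the gene's TPM it averaged 10.1% in B6J and 29.4% in Gtpbp1-/-, while Gtpbp1-201 averaged 77.7% and 56.2%. Both shares have an exact permutation p of 0.1, the smallest that 3 against 3 libraries can give. Gtpbp1 spans chr15:79690845-79721479, and exons 3 and 4 of Gtpbp1-201 (chr15:79706992-79707172 and chr15:79707695-79708043) lie upstream of Gtpbp1-207.

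For Gtpbp2 the isoforms of the 3 genotypes part in other ways. Gtpbp2-201, annotated as protein-coding, was estimated at 31.3, 29.6 and 34.2 TPM in B6J, 50, 41.9 and 46.4 in Gtpbp1-/- and 18.2, 23.5 and 22.5 in Gtpbp2-/-, so the 3 groups do not overlap. Gtpbp2-212 was at 7.41, 9.46 and 5.03 TPM in B6J, 13.6, 11.9 and 10.1 in Gtpbp1-/- and 24.6, 22.3 and 21.2 in Gtpbp2-/-, and Gtpbp2-214, which retains intron 3 (chr17:46164379-46164724, 346 bases), at 10.8, 6.74 and 6.07, at 10.6, 15 and 12.1 and at 17.5, 20 and 17.8. Gtpbp2-/- lies above both other groups in each. Both isoforms were named because they hold at least 10% of the gene's TPM on average, which they do in Gtpbp2-/- alone. Their higher level there is therefore favoured by that selection, and so are their tests. None passed the test in Gtpbp2-/-, where Gtpbp2-201 changed by -0.68 (edgeR adjusted p 0.138, range over alternatives 0.142 to 0.403), Gtpbp2-212 by 1.49 (adjusted p 0.14, range 0.0584 to 0.449) and Gtpbp2-214 by 1.10 (adjusted p 0.225). In Gtpbp1-/- Gtpbp2-201 changed by 0.42 (adjusted p 0.169). Its share of the gene's TPM averaged 31.4% in B6J, 30.3% in Gtpbp1-/- and 15.2% in Gtpbp2-/- (exact permutation p 0.9 and 0.1 against B6J). The share of Gtpbp2-212 averaged 7.3% in B6J, 7.83% in Gtpbp1-/- and 16.3% in Gtpbp2-/-. No test is drawn from that share, since its mean reached the 10% needed to be compared in Gtpbp2-/- alone.

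**Figure D2:**
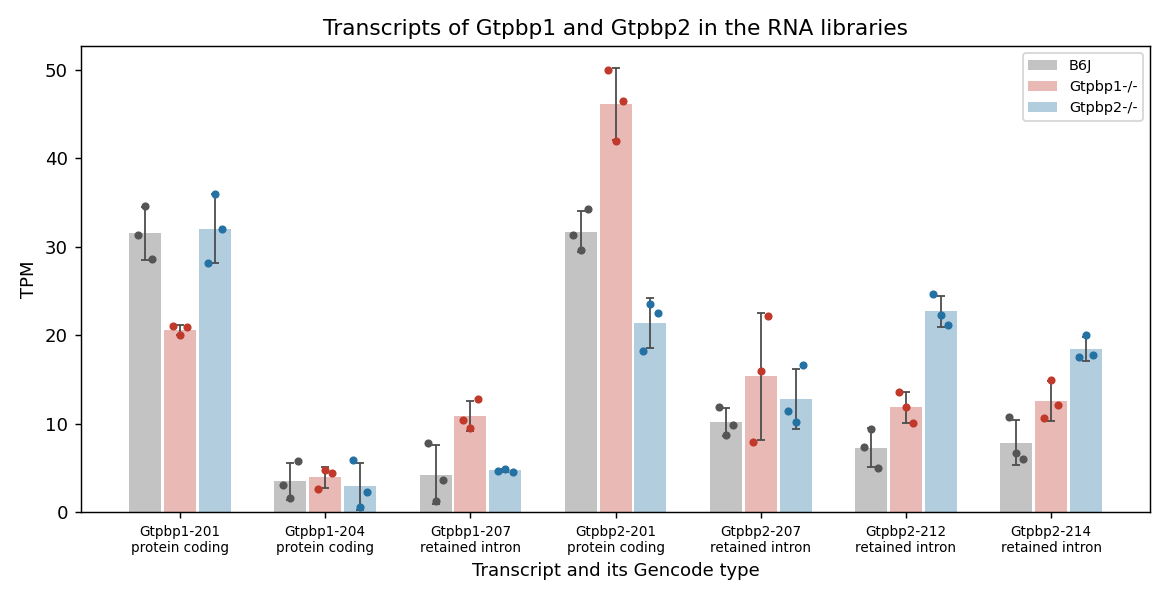
TPM of transcripts of Gtpbp1 and Gtpbp2 in the 3 genotypes (points, libraries, bars, group means, error bars, 1 SD). Of these, edgeR called Gtpbp1-201 in Gtpbp1-/- against B6J, and leaving out any of the 6 libraries removed that call.

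The annotation of Gtpbp2-212 starts inside intron 6, the intron whose donor site nmf205 changes. Intron 6 (chr17:46165630-46165777, 148 bases, plus strand) is spliced out of Gtpbp2-201. Gtpbp2-212 has 5 exons, lacks exons 1 to 6 and exon 12 of Gtpbp2-201, and begins with the last 82 bases of intron 6, chr17:46165696-46165777, joined to exon 7. It therefore does not show splicing from exon 6, and reads of any RNA that retains intron 6 could be assigned to it. That intron is given here from the GRCm38 reference with the bases held by Gtpbp2-212 in capitals, followed by the last 15 bases of exon 6 in capitals with the start of intron 6 (chr17:46165615-46165644). The reference carries the B6J bases and not the nmf205 change, and the files hold no reads, so the form of the mutant's RNA at this intron was not tested.
Gtpbp2 intron 6: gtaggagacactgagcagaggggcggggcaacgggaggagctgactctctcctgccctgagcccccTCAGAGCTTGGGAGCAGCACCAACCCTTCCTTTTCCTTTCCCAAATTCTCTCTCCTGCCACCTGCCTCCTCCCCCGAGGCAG
Gtpbp2 exon 6 end: CCAACACTGGAATCGgtaggagacactgag

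**Figure D3:**
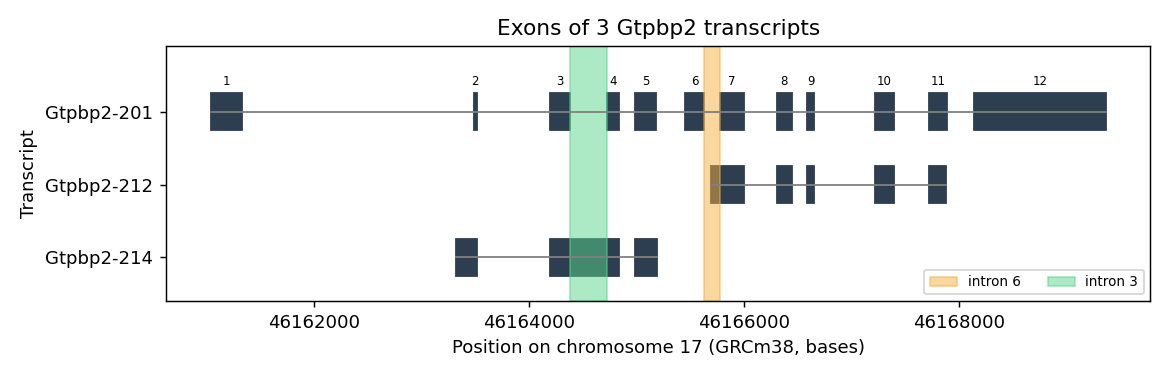
Exons of Gtpbp2-201, Gtpbp2-212 and Gtpbp2-214 on chromosome 17 (boxes, exons; lines, introns; horizontal axis, position in GRCm38). Intron 6 and the retained intron 3 are marked.

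Hbs1l and Pelo form the rescue complex closest to Gtpbp1 and Gtpbp2 in structure. Hbs1l RNA was 62.8, 64.5 and 68.1 CPM in B6J, 70.3, 76.7 and 73.6 in Gtpbp1-/- and 64.9, 72.4 and 73.7 in Gtpbp2-/-. Gtpbp1-/- lies above B6J in all 3 libraries, yet neither change was called (log2 fold change 0.17, edgeR adjusted p 0.172, and 0.10, adjusted p 0.528). Footprints on Hbs1l were 45.4, 41 and 29.7 CPM in B6J, 29.7, 27.2 and 26.6 in Gtpbp1-/- and 30.7, 41.7 and 32.8 in Gtpbp2-/-, with the highest Gtpbp1-/- library level with the lowest B6J library. The footprint change in Gtpbp1-/- was -0.47 (adjusted p 0.407), and the change in TE was -0.63 (adjusted p 0.477). Without B6J footprint replicate 3, the lowest of its group, TE of Hbs1l was called at -0.83 (adjusted p 0.0345, range over 19 alternatives 0.0345 to 0.921). Hbs1l was the only member called in TE in any of those alternatives, and the fit that called it called far more genes in all than the main fit. In Gtpbp2-/- the TE change was -0.24 (adjusted p 0.694) and turned positive in 1 of 19 alternatives.

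Pelo RNA was low and close between groups, at 8.35, 7.9 and 10.1 CPM in B6J, 9.24, 9.85 and 9.49 in Gtpbp1-/- and 9.73, 8.21 and 9.64 in Gtpbp2-/-. Its footprints were 18.0, 13.6 and 26.1 CPM in B6J, 19.7, 25.8 and 17.1 in Gtpbp1-/- and 19.5, 24.0 and 22.6 in Gtpbp2-/-. All groups overlap in both assays. None of the 4 changes against B6J was called by edgeR (RNA 0.11 and 0.06, adjusted p 0.721 and 0.893, footprints 0.12 and 0.19, adjusted p 0.907 and 0.77), and all but the RNA change in Gtpbp1-/- turned negative in 2 alternatives each. Pelo had the highest log2 ratio of footprints to RNA of the 10 genes in each genotype (1.13, 1.13 and 1.26). Its exons overlap those of Gm49395 on the same strand (mean TPM 0.197 in B6J, 1.05 in Gtpbp1-/- and 0.796 in Gtpbp2-/-) and of Gm10734 on the other, and those of Hbs1l overlap 4930455C13Rik, so reads in the shared bases cannot be assigned.

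Abce1 is the recycling factor, needed after Pelo and also after ordinary termination. Abce1 RNA was 125, 127 and 140 CPM in B6J, 146, 165 and 167 in Gtpbp1-/- and 116, 154 and 162 in Gtpbp2-/-. The Gtpbp1-/- libraries all lie above B6J, while Gtpbp2-/- replicate 1 is the lowest of the 9. In Gtpbp1-/- the rise was 0.28 on the log2 scale (SE 0.0815, edgeR adjusted p 0.0391). The call was lost without B6J replicate 1 (0.24, adjusted p 0.161), B6J replicate 2 (0.25, adjusted p 0.123), Gtpbp1-/- replicate 2 (0.25, adjusted p 0.157) or Gtpbp1-/- replicate 3 (0.24, adjusted p 0.12), and Abce1 was called in 6 of 14 alternatives (adjusted p 0.012 to 0.161), always as higher. In Gtpbp2-/- the change was 0.13 (adjusted p 0.574), but 0.26 without Gtpbp2-/- replicate 1, 0.08 without its replicate 2 and 0.04 without its replicate 3 (adjusted p over the left-out libraries 0.0677 to 0.922). The mutants were not shown to differ in Abce1.

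Footprints on Abce1 were 93.7, 92.2 and 94.0 CPM in B6J, 124, 113 and 73.6 in Gtpbp1-/- and 109, 95.1 and 93.6 in Gtpbp2-/-, so both mutants overlap B6J, and neither change was called (0.16, edgeR adjusted p 0.823, and 0.09, adjusted p 0.816). Over left-out libraries these changes ran from 0.004 to 0.36 in Gtpbp1-/- and from 0.02 to 0.14 in Gtpbp2-/-. Its coding isoform Abce1-201 was estimated at 66.5, 69.0 and 77.1 TPM in B6J, 90.0, 101 and 103 in Gtpbp1-/- and 69.8, 95.1 and 96.5 in Gtpbp2-/-. The Gtpbp1-/- libraries lie above B6J, and the change of 0.37 was not called (adjusted p 0.165).

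Promoters of the 10 genes were searched for 3 motifs tied to stress-responsive transcription, on both strands from 250 bases before to 50 after each start (RefSeq starts, build GRCm38.p6). Of 32851 promoters searched, 588 (1.79%) held the cAMP-response element TGACGTCA, 294 (0.895%) the element TGATGCAA bound by Atf4 with its partners and 1304 (3.97%) its looser form TGATGNAA. Among the 10 members only Abce1 held any, a single TGACGTCA just before its start, given here with the motif in capitals (chr8:79711741-79711780, read on the minus strand). Its use in these mice was not tested.
Abce1 promoter: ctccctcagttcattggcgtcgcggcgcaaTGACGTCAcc

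Nemf and Ltn1 act after subunit splitting, when Nemf binds the large subunit and Ltn1 marks the unfinished peptide with ubiquitin. Nemf RNA was 128, 129 and 132 CPM in B6J, 146, 144 and 143 in Gtpbp1-/- and 143, 146 and 138 in Gtpbp2-/-, above B6J in all 6 mutant libraries, though by little (0.15, edgeR adjusted p 0.174, and 0.12, adjusted p 0.339). Footprints on Nemf were 68.7, 59.9 and 58.7 CPM in B6J, 69.2, 61.0 and 33.7 in Gtpbp1-/- and 93.8, 75.7 and 57.4 in Gtpbp2-/-. Both mutants overlap B6J there, and neither change was called (-0.18, adjusted p 0.831, positive in 1 of 12 alternatives, and 0.28, adjusted p 0.511, which was 0.09 without Gtpbp2-/- replicate 1 and 0.45 without its replicate 3). Nemf exons overlap Klhdc2 on the opposite strand (mean TPM 158 in B6J, 194 in Gtpbp1-/- and 188 in Gtpbp2-/-), so part of its RNA reads cannot be told apart from those of Klhdc2.

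Ltn1 RNA was 103, 99.8 and 95.9 CPM in B6J, 95.8, 114 and 113 in Gtpbp1-/- and 90.6, 108 and 116 in Gtpbp2-/-. Its footprints were 112, 76.8 and 103 CPM in B6J, 125, 128 and 79.0 in Gtpbp1-/- and 107, 127 and 109 in Gtpbp2-/-. All groups overlap in both assays, with no call in RNA (0.11, edgeR adjusted p 0.483, and 0.07, adjusted p 0.754, negative in 1 of 14 alternatives) or in footprints (0.20, adjusted p 0.784, and 0.23, adjusted p 0.536).

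Znf598 ubiquitinates the small subunit of collided ribosomes. In RNA, Zfp598 was at 60.5, 56.9 and 69.1 CPM in B6J, 67.9, 71.9 and 62.6 in Gtpbp1-/- and 64.9, 68.3 and 67.3 in Gtpbp2-/-. In footprints it was at 49.9, 49.8 and 32.7 CPM in B6J, 27.2, 30.3 and 42.1 in Gtpbp1-/- and 48.4, 63.5 and 29.5 in Gtpbp2-/-. Groups overlap in both assays. RNA changed by 0.11 (edgeR adjusted p 0.506) and 0.10 (adjusted p 0.602) in the 2 mutants, footprints by -0.41 (adjusted p 0.521) and 0.08 (adjusted p 0.913, negative in 2 of 12 alternatives), and TE in Gtpbp1-/- by -0.51 (adjusted p 0.59), none called. Over its 19 alternatives that TE change ran from -0.74 to -0.41 and was called in none (adjusted p 0.138 to 0.928).

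Ascc3, the helicase that takes collided ribosomes apart, had RNA at 30.3, 41.6 and 38.9 CPM in B6J, 42.8, 44.2 and 50.1 in Gtpbp1-/- and 37.7, 43.9 and 42.1 in Gtpbp2-/-. Gtpbp1-/- lies above B6J in all 3 libraries, and the change of 0.30 was not called (edgeR adjusted p 0.107), except with no filter on low counts (adjusted p 0.0211). Left-out libraries moved it from 0.18 (without B6J replicate 1, the lowest of its group) to 0.39 (without B6J replicate 2), with adjusted p from 0.0781 to 0.352. In Gtpbp2-/- it was 0.15 (adjusted p 0.512), from 0.03 without B6J replicate 1 to 0.24 without B6J replicate 2. Footprints on Ascc3 were 29.0, 25.9 and 27.6 CPM in B6J, 32.9, 27.5 and 19.8 in Gtpbp1-/- and 37.8, 39.5 and 27.8 in Gtpbp2-/-. Gtpbp1-/- overlaps B6J (-0.03, adjusted p 0.975, of either sign among alternatives), and Gtpbp2-/- reaches down into the B6J range (0.34, adjusted p 0.419).

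Ascc2 binds the ubiquitin chains that Znf598 makes. Its RNA was 24.6, 20.1 and 25.3 CPM in B6J, 26.1, 24.4 and 22.8 in Gtpbp1-/- and 24.1, 25.4 and 28.7 in Gtpbp2-/-, and its footprints were 16.0, 16.7 and 12.2, 17.9, 13.7 and 12.7, and 17.8, 21.8 and 12.1 CPM. All groups overlap in both assays, and none of the changes was called by edgeR (RNA 0.06, adjusted p 0.815, negative in 1 of 14 alternatives, and 0.15, adjusted p 0.531, footprints -0.01, adjusted p 0.995, of either sign among alternatives, and 0.19, adjusted p 0.782).

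Over the 10 genes, RNA CPM of Gtpbp1-/- lay wholly above B6J for 5 (Gtpbp2, Hbs1l, Abce1, Nemf and Ascc3), wholly below for 1 (Gtpbp1) and overlapped for 4, whereas for Gtpbp2-/- it lay above for 1 (Nemf) and overlapped for 9. Of all genes tested, 16.4% lay wholly above B6J and 15.5% wholly below in Gtpbp1-/-, and 14.9% and 13.6% in Gtpbp2-/-. The median log2 fold change of the members was 0.13 in Gtpbp1-/- and 0.10 in Gtpbp2-/-, against 0.03 for all genes tested in each. In footprints it was -0.02 and 0.14, against 0.01 in each, and in TE -0.23 and 0.01, against 0.03 in each. On the TPM scale 9 members lay wholly above B6J in Gtpbp1-/- and 5 in Gtpbp2-/-, where 25.4% and 23.5% of all genes tested did. That scale moves the median of all genes tested by 0.20 in Gtpbp1-/- and 0.18 in Gtpbp2-/-, and CPM by 0.04 and 0.03. Among genes with a mean TPM of at least 5, as all 10 members have, TPM moves it by 0.12 and 0.11 and CPM by -0.04 and -0.04, and 29.4% and 26.3% of these genes lay wholly above B6J in TPM and 16.1% and 13.3% in CPM.

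Without Gtpbp1 and Gtpbp2 the other 8 genes summed to 286, 285 and 305 TPM in B6J, 356, 377 and 373 in Gtpbp1-/- and 324, 364 and 372 in Gtpbp2-/-, with both mutants above B6J. The largest terms are Abce1, Nemf and Hbs1l (means of 79.8, 64.7 and 59.5 TPM in B6J), and TPM also raised the median of all genes tested, as given above. In RNA CPM, which weighs long transcripts more, they summed to 542, 547 and 580 in B6J, 604, 650 and 641 in Gtpbp1-/- and 550, 627 and 637 in Gtpbp2-/-, so that Gtpbp1-/- lies above B6J and Gtpbp2-/- overlaps it. In footprints the 8 summed to 432, 376 and 384 CPM in B6J, 446, 427 and 305 in Gtpbp1-/- and 464, 488 and 385 in Gtpbp2-/-, where both mutants overlap B6J.

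Setting the mutants against each other asks whether the losses of Gtpbp1 and of Gtpbp2 differ in effect. In RNA 1 of the 10 members was called (Gtpbp2, higher in Gtpbp1-/-), where 0.0595% of 25190 genes were called. Its log2 fold change was 0.55 (SE 0.0788, edgeR adjusted p 0.036). The call was lost when any of the 6 libraries was left out (adjusted p 0.279, 0.214 and 0.128 without Gtpbp1-/- replicates 1, 2 and 3, and 0.0548, 0.0714 and 0.131 without Gtpbp2-/- replicates 1, 2 and 3, with log2 fold changes from 0.50 to 0.60), and with the offset for effective length the change was 0.11. Gtpbp1 changed by -0.60 (adjusted p 0.0502), and was called without Gtpbp2-/- replicate 1 (-0.67, adjusted p 0.00774). The other 8 genes lay between -0.09 and 0.15, each with an adjusted p of 1.

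In footprints edgeR called 0 of the 10 between the mutants, and 0% of 14142 genes (1523 at an unadjusted p under 0.05, 100 called by DESeq2). Gtpbp1 was lower in all Gtpbp1-/- libraries (-1.16, adjusted p 0.141) and Gtpbp2 higher in all (1.16, adjusted p 0.4, from 0.73 without Gtpbp2-/- replicate 3 to 1.51 without Gtpbp2-/- replicate 1), each lower in its own mutant. Both had an unadjusted p under 0.05, and DESeq2 called Gtpbp1. Hbs1l was the only other member whose footprint libraries did not overlap, lower in Gtpbp1-/- (-0.33, adjusted p 0.575, and -0.20 without Gtpbp2-/- replicate 2). Of all 14142 genes, footprints of Gtpbp1-/- lay wholly above those of Gtpbp2-/- for 8.85% and wholly below for 7.25%. In TE 0 of the 10 members were called by edgeR, and 0% of 13292 genes (1483 at an unadjusted p under 0.05, 155 called by DESeq2), with 1 of the 10 at an unadjusted p under 0.05 (Gtpbp1), 0 called by DESeq2, Hbs1l at -0.39 (adjusted p 0.45) and Ascc3 at -0.52 (adjusted p 0.457). Of 48 transcripts of the members edgeR called 0, against 0.00426% of 70389 (2121 at an unadjusted p under 0.05), with 5 of the 48 at an unadjusted p under 0.05 and 0 called by limma-trend.

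Which other genes vary like a member over the 9 RNA libraries was read from correlations of log2 CPM with 12347 genes at a mean CPM of at least 5. For Abce1 the closest were Tsga10, Ppil4 and Trip6 (each r 0.98), and among the members r was 0.95 with Hbs1l, 0.82 with Ltn1 and 0.74 with Ascc3. For Gtpbp1 they were Pafah1b2 (r 0.95), Gm5859 (0.94) and Gamt (0.94), and for Gtpbp2 Nt5e (0.95), Colec12 (0.94) and Ide (0.91). Gtpbp1 and Gtpbp2 had r -0.76, but each is itself mutated in part of these libraries, which enters that r and their closest genes. Whether either gene regulates the other was not tested. These values mix differences between genotypes with those between single libraries, such as the low Abce1, Hbs1l and Ltn1 of Gtpbp2-/- replicate 1, and for genes picked from so many they are high by selection.

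A further 5 lists of genes near this pathway were read beside the members. Together edgeR called 8 of their 59 genes in RNA of Gtpbp1-/- (13.6%, against 13.8% of all genes) and 7 of 59 in Gtpbp2-/- (11.9%, against 8.63%), so the calls named here are about as frequent as among genes at large in Gtpbp1-/-. DESeq2 called 13 and 10 of the 59. Among 7 relatives of translational GTPases, edgeR called 1 lower in both mutants, Eef1a2, the eEF1A of neurons and muscle. DESeq2 called Eef1a1 as well in both. Eef1a2 RNA was 709, 726 and 681 CPM in B6J, 507, 477 and 483 in Gtpbp1-/- and 518, 507 and 534 in Gtpbp2-/-, with all mutant libraries below B6J. It fell by 0.53 in Gtpbp1-/- (edgeR adjusted p 0.000555) and by 0.45 in Gtpbp2-/- (adjusted p 0.00544), in all 14 alternatives of each. Its footprints, 1820, 2220 and 2380 CPM in B6J, 1830, 1730 and 1630 in Gtpbp1-/- and 1700, 1560 and 1760 in Gtpbp2-/-, overlap B6J in Gtpbp1-/- and lie below it in Gtpbp2-/-, and were not called. Medians of this list were -0.19 and -0.15.

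Of 4 recycling and termination factors (medians 0.03 and -0.02), the release factor Etf1 was called higher in both mutants and Eif2d lower in Gtpbp1-/-, with a change of like size in Gtpbp2-/- that just missed the threshold. Etf1 RNA was 103, 106 and 109 CPM in B6J, 138, 148 and 151 in Gtpbp1-/- and 120, 147 and 155 in Gtpbp2-/-, all mutant libraries above B6J. Its rise was 0.45 (edgeR adjusted p 0.000957, called in all 14 alternatives) and 0.40 (adjusted p 0.0239, called in 9 of 14). In Gtpbp2-/- the call was lost without B6J replicate 1 (0.38, adjusted p 0.11), B6J replicate 2 (0.40, adjusted p 0.0889), Gtpbp2-/- replicate 2 (0.36, adjusted p 0.0808) or Gtpbp2-/- replicate 3 (0.33, adjusted p 0.107). Etf1 footprints, 80.0, 74.8 and 93.6 CPM in B6J, 128, 102 and 68.2 in Gtpbp1-/- and 121, 95.9 and 124 in Gtpbp2-/-, overlap B6J in Gtpbp1-/- and lie above it in Gtpbp2-/-, and were not called. Eif2d RNA was 32.0, 33.6 and 38.6 CPM in B6J, 27.9, 26.4 and 27.0 in Gtpbp1-/- and 28.9, 26.8 and 25.7 in Gtpbp2-/-, with all mutant libraries below B6J. It fell by 0.37 in Gtpbp1-/- (adjusted p 0.0246) and changed by -0.36 in Gtpbp2-/- (adjusted p 0.0528), where DESeq2 called it. The call in Gtpbp1-/- was lost without B6J replicate 2 (adjusted p 0.0507), B6J replicate 3 (0.0565) or Gtpbp1-/- replicates 1, 2 or 3 (0.052, 0.113 and 0.0611), with changes from -0.39 to -0.29 over these, and adjusted p over all 14 alternatives ran from 0.00694 to 0.113. Eif2d footprints averaged 26.1 CPM in B6J, 19.7 in Gtpbp1-/- and 26.2 in Gtpbp2-/-. They lie below B6J in Gtpbp1-/- and overlap it in Gtpbp2-/-, and were not called.

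Among 9 other factors of the large-subunit arm (medians 0.05 and 0.00), Ufd1, part of the complex that extracts tagged peptides, was higher in both mutants. Ufd1 RNA was 62.7, 57.0 and 59.0 CPM in B6J, 88.3, 79.9 and 83.8 in Gtpbp1-/- and 81.3, 83.9 and 80.1 in Gtpbp2-/-, with all mutant libraries above B6J. Its rise was 0.49 (edgeR adjusted p 0.000884) and 0.45 (adjusted p 0.00488), called in all 14 alternatives of each comparison. Its footprints averaged 77.5 CPM in B6J, 84.7 in Gtpbp1-/- and 84.6 in Gtpbp2-/-, and both mutants overlap B6J there.

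Of 19 factors of collision sensing and the small-subunit arm (medians -0.07 and -0.10), 1 was higher and 2 lower in each mutant, against 13.8% and 8.63% of all genes called. N4bp2 RNA was 25.4, 24.1 and 22.2 CPM in B6J, 31.5, 33.9 and 31.6 in Gtpbp1-/- and 38.2, 30.8 and 32.2 in Gtpbp2-/-. Edf1, which binds collided ribosomes, was at 75.2, 72.3 and 76.9 CPM in B6J, 53.3, 55.3 and 54.7 in Gtpbp1-/- and 56.3, 57.6 and 45.8 in Gtpbp2-/-, and Mkrn1 at 168, 164 and 175, at 144, 139 and 144 and at 139, 146 and 139. For all 3 genes both mutants lie wholly to the same side of B6J, N4bp2 above and the others below. N4bp2 rose by 0.43 (edgeR adjusted p 0.009, lost without Gtpbp1-/- replicate 2 at 0.39, adjusted p 0.062) and by 0.49 (adjusted p 0.0198, lost without B6J replicate 1 at 0.54, adjusted p 0.0528, or B6J replicate 2 at 0.49, adjusted p 0.0758). Edf1 fell by 0.47 in Gtpbp1-/- (adjusted p 0.000939, called in all 14 alternatives) and by 0.50 in Gtpbp2-/- (adjusted p 0.0104, lost without B6J replicate 1 at -0.49, adjusted p 0.0506). No change in footprints of Edf1 or N4bp2 was called, and at the low N4bp2 level a change of this size could be missed. Those on Edf1 averaged 99.5 CPM in B6J, 110 in Gtpbp1-/- and 100 in Gtpbp2-/-, and those on N4bp2 8.18, 6.63 and 10.9. Both mutants overlap B6J in footprints of both genes.

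Mkrn1 fell by 0.25 in Gtpbp1-/- (edgeR adjusted p 0.0299) and by 0.26 in Gtpbp2-/- (adjusted p 0.0436). In Gtpbp1-/- its call was lost without B6J replicate 1 (-0.26, adjusted p 0.0883), B6J replicate 3 (-0.23, 0.0548), or Gtpbp1-/- replicate 1 (-0.26, 0.0622), 2 (-0.23, 0.133) or 3 (-0.26, 0.0503). In Gtpbp2-/- it was lost without any of the 6 libraries (-0.29 to -0.23, adjusted p 0.0624 to 0.157). Of 20 genes of the Ski complex, exosome and 5′ decay (medians 0.05 and -0.01), Dis3l was lower in both mutants, at 47.0, 44.7 and 45.9 CPM in B6J, 33.2, 34.6 and 35.3 in Gtpbp1-/- and 31.1, 38.3 and 38.1 in Gtpbp2-/-. It fell by 0.42 (adjusted p 0.00385, called in all 14 alternatives) and by 0.36 (adjusted p 0.0425, lost without any of the 6 libraries, -0.42 to -0.27, adjusted p 0.0614 to 0.141). Footprints on Mkrn1 averaged 69.8 CPM in B6J, 68.2 in Gtpbp1-/- and 74.9 in Gtpbp2-/-, and those on Dis3l 38.3, 26.9 and 26.0. Both mutants overlap B6J in footprints of both genes. In footprints edgeR called 0 of the 60 genes of these 5 lists in either mutant (5 and 7 at an unadjusted p under 0.05, 0 called by DESeq2), and in TE 0 of 59 (3 and 6 at an unadjusted p under 0.05, 0 and 1 called by DESeq2). Between the mutants it called 0 in RNA, footprints and TE (0, 10 and 10 at an unadjusted p under 0.05, 0, 1 and 1 called by DESeq2).

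**Figure D4:**
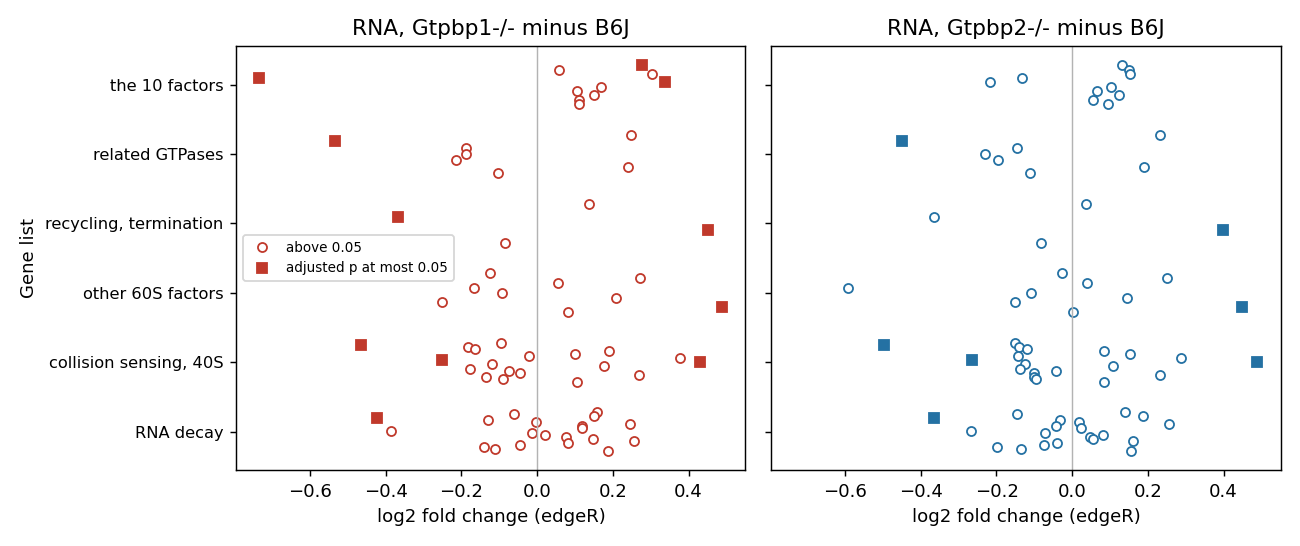
Log2 fold changes in RNA of each gene of the member list and the 5 further pathway lists in Gtpbp1-/- and Gtpbp2-/- against B6J (1 point per gene, filled squares for genes called by edgeR). Gtpbp2 in Gtpbp2-/-, plotted below 0 and not called, turns to above 0 with an offset for effective length. It is called below 0 (-0.61) with counts of protein-coding transcripts alone, whose mean TPM was 39.1 in B6J and 36.1 in Gtpbp2-/-.

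Cell composition bears on every value from whole tissue, where fewer cells of a type and less RNA per cell cannot be told apart. In the paper, dying granule cells were reported in caudal lobes shortly before 4 weeks of age, and these mice were younger. Whether granule cells were already fewer here was not tested. Granule cell markers summed to 2580, 2690 and 2670 TPM in B6J, 1710, 1730 and 2030 in Gtpbp1-/- and 1850, 1970 and 1740 in Gtpbp2-/-, both mutants below B6J. Of the 6, edgeR called 5 lower in Gtpbp1-/- and 4 in Gtpbp2-/- (5 and 6 by DESeq2), with the most abundant, Gabra6, at -1.08 (adjusted p 1.6e-05) and -1.02 (adjusted p 8.15e-05). In footprints the 6 summed to 4100, 5840 and 4500 CPM in B6J, 3270, 2430 and 3510 in Gtpbp1-/- and 2480, 2320 and 2080 in Gtpbp2-/- (most abundant Fat2), with edgeR calling 0 in Gtpbp1-/- (5 at an unadjusted p under 0.05, 1 called by DESeq2) and 5 lower in Gtpbp2-/- (6 by DESeq2). Of these footprint calls in Gtpbp2-/-, that of Cbln3 held in 3 of 6 fits without a library and that of Zic1 in 4 (edgeR adjusted p up to 0.0852 and 0.0559). Those of Gabra6 and Neurod1 held in 6 of 6. Microglia markers summed to 57.4, 58.4 and 69.6 TPM in B6J, 144, 125 and 126 in Gtpbp1-/- and 125, 129 and 135 in Gtpbp2-/-, above B6J in both mutants. Of these 6, edgeR called 4 and 3 higher in RNA (4 and 3 called by DESeq2) and 1 in the footprints of each mutant (3 and 1 called by DESeq2), with C1qa at 1.37 (adjusted p 3.45e-06) and 1.32 (adjusted p 8.98e-05) in RNA. In Gtpbp1-/- the call of C1qa in footprints held in 2 of 6 fits without a library (lost without B6J replicate 1, 2 or 3 or Gtpbp1-/- replicate 1, adjusted p up to 0.143) and that of Aif1 in RNA in 1 of 6 (held only without B6J replicate 3, adjusted p up to 0.149).

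Endothelial markers summed to 83.9, 78.0 and 85.2 TPM in B6J, 115, 129 and 125 in Gtpbp1-/- and 111, 143 and 154 in Gtpbp2-/- (most abundant Cldn5), both mutants above B6J, with 2 and 3 of 5 called higher by edgeR in RNA (4 and 4 by DESeq2) and 1 and 2 in footprints (3 and 3 by DESeq2). In RNA of Gtpbp2-/- the edgeR calls of Esam and Pecam1 each held in 1 of 6 fits without a library (only without Gtpbp2-/- replicate 1, adjusted p up to 0.158 and 0.159), and in RNA of Gtpbp1-/- that of Flt1 in 2. In footprints that of Cldn5 in Gtpbp1-/- held in 3 of 6 and that of Esam in Gtpbp2-/- in 2, while Cldn5 held in 6 of 6 in RNA of both mutants. Oligodendrocyte markers summed to 9400, 8100 and 9310 TPM in B6J, 7630, 7750 and 6670 in Gtpbp1-/- and 11100, 8340 and 9070 in Gtpbp2-/- (most abundant Mbp), with medians of -0.44 in RNA and 0.10 in footprints for Gtpbp1-/-, all 6 called lower in RNA of Gtpbp1-/- (6 by DESeq2, and Mbp in 3 of 6 fits without a library) and edgeR calling 0 in Gtpbp2-/- (0 also at an unadjusted p under 0.05 and in DESeq2). Purkinje markers summed to 5830, 6140 and 4910 TPM in B6J, 5690, 4760 and 6180 in Gtpbp1-/- and 4800, 5140 and 4260 in Gtpbp2-/- (most abundant Pcp2), with 2 and 3 of 6 called lower by edgeR (2 and 4 by DESeq2), of which Car8 in Gtpbp1-/- and Calb1 in Gtpbp2-/- each held in 2 of 6 fits without a library and Car8 in Gtpbp2-/- in 3. Footprints of the Purkinje markers summed to 10800, 6980 and 14300 CPM in B6J, 13100, 14100 and 8030 in Gtpbp1-/- and 16400, 16100 and 14000 in Gtpbp2-/-, which overlap. Their median log2 fold changes were -0.27 and -0.39 in RNA, 0.11 and 0.45 in footprints and 0.35 and 0.85 in TE, where 1 and 5 of the 6 had an unadjusted p under 0.05, the 5 all as higher, and edgeR called 0.

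Bergmann glia and astrocyte markers summed to 1990, 2020 and 1740 TPM in B6J, 2050, 1790 and 2060 in Gtpbp1-/- and 1730, 2040 and 1800 in Gtpbp2-/- (most abundant Slc1a3), with 3 of 6 called lower by edgeR in each mutant (of which S100b held in 1 and 2 of 6 fits without a library, Aldh1l1 in 2 and 2 and Slc1a3 in 4 and 2) and 1 higher, Gfap, at 1.35 (edgeR adjusted p 3.04e-05) and 1.22 (adjusted p 0.000104). Bone and connective tissue markers summed to 35.9, 35.7 and 23.0 TPM in RNA of B6J, 33.9, 50.4 and 35.7 of Gtpbp1-/- and 25.5, 45.8 and 40.4 of Gtpbp2-/-, but to 274, 656 and 894 CPM in footprints of B6J, 1550, 1370 and 2660 of Gtpbp1-/- and 605, 963 and 472 of Gtpbp2-/-. Skeletal muscle markers summed to 6.58, 5.3 and 4.94 TPM in RNA of B6J, 4.08, 5.31 and 6.63 of Gtpbp1-/- and 4.44, 5.97 and 4.99 of Gtpbp2-/-, and to 6.74, 15.8 and 13.6 CPM in footprints of B6J, 31.6, 15.1 and 44.3 of Gtpbp1-/- and 3.9, 7.63 and 3.66 of Gtpbp2-/-. In RNA and in footprints 1 or 2 of the 5 bone or muscle markers were at 0 in some libraries. In footprints edgeR called 0 genes of the oligodendrocyte, Purkinje, Bergmann, choroid plexus, bone and muscle lists in either mutant (9 of 33 and 4 of 29 at an unadjusted p under 0.05, 3 and 4 called by DESeq2), and in RNA 0 of the choroid plexus, bone and muscle lists (0 at an unadjusted p under 0.05 and 0 called by DESeq2). Over all 9 marker lists it called 0 genes in TE against B6J (11 and 12 at an unadjusted p under 0.05, 1 and 1 called by DESeq2), and 0 between the mutants in RNA, footprints and TE (5, 17 and 11 at an unadjusted p under 0.05, 1, 5 and 3 called by DESeq2). How far cell composition accounts for the changes of the 10 members was not tested.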

How the data were processed

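RNA-seq (poly(A), paired reads) and ribosome profiling were made from cerebellum of 3 genotypes, with 3 libraries each, 18 in all. The authors made estimated counts and TPM (transcript levels scaled to length and library total) for each Gencode transcript with kallisto 0.42.4, and both were deposited for each RNA library. For footprints the authors deposited a count per gene, made with featureCounts over coding sequence from reads aligned with HISAT2 2.1.0 to mm10 after removal of ribosomal RNA with Bowtie2 2.2.3. Here estimated counts were summed per gene and rounded. RNA libraries hold 37794598 to 52114400 estimated counts and footprint libraries 3630823 to 10442573 counts, which makes footprint changes the less precise.

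Each pair of genotypes was compared in RNA, footprints, transcripts and translation efficiency (TE, the interaction of genotype and assay) with edgeR 4.0.16 quasi-likelihood fits, TMM normalization and a Benjamini-Hochberg adjusted p of 0.05 as the threshold, in R 4.3.3. Features with at least 5 counts (10 for TE, where genes with the prefix Hist were left out) in at least 3 libraries were tested. CPM uses TMM over the 9 libraries of an assay. Shares of isoforms holding on average at least 10% of a gene's TPM in any genotype were compared by exact permutation. Positions come from Gencode M21 on GRCm38, the authors' genome build, and the authors' counts from Gencode M20.

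The 10 members, the 5 further pathway lists and the 9 marker lists were chosen with earlier results of these data known. Pathway lists covered relatives of translational GTPases, recycling and termination, large-subunit arm, collision sensing and small-subunit arm, Ski complex with exosome and 5′ decay. Marker lists covered granule, Purkinje, Bergmann glia and astrocyte, oligodendrocyte, microglia, endothelial, choroid plexus, bone and connective tissue, skeletal muscle. At most 4 genes per list, direction and comparison could be named, by adjusted p. Of the markers Gabra6, C1qa and Gfap are printed with their tests, picked after their values were seen, among those called in RNA in all 14 alternatives. Of the 21 RNA decay genes, 20 were tested in RNA.

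Alternatives were leaving out each library in turn, no count filter, DESeq2 1.42.0, upper-quartile scaling, a replicate block, all libraries of an assay in 1 model, sex as a covariate, an offset for effective length, protein-coding transcripts alone, limma 3.58.1 on log2 TPM for transcripts and TMM within each assay for TE. The fits were tested on simulated data, where the TE fit missed most 2-fold changes put in. A 2-fold change is more than the TE change of any member in the main edgeR fits, though not in all fits without a library (-1.22 for Gtpbp2 in Gtpbp2-/-). Having no TE calls therefore does not show that nothing changed. Python 3.11.15 with pandas 2.3.3 made the descriptive tables.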

Additional observations from a re-analysis of the deposited data

Results flagged for a closer look

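The direct test between the 2 mutants, which asks whether the effects of losing Gtpbp1 and losing Gtpbp2 differ, called Gtpbp2 RNA alone among the 10 members, with Gtpbp1 just short of a call (-0.60, edgeR adjusted p 0.0502). Its log2 fold change (Gtpbp1-/- minus Gtpbp2-/-) was 0.55, with CPM of 109, 101 and 104 in Gtpbp1-/- against 65.6, 75.5 and 72.9 in Gtpbp2-/-, higher in 3 of 3 libraries (edgeR adjusted p 0.036, range over 14 alternatives 5.01e-06 to 0.999). Since Gtpbp2 itself carries the nmf205 change in 1 of the mutants, the value holds both the rise in Gtpbp1-/- and whatever nmf205 does to Gtpbp2 RNA, and the share of each was not tested. With an offset for effective length the difference was 0.11 (adjusted p 0.999). The call was also lost when any of the 6 libraries was left out and with sex as a covariate (adjusted p 0.787), and Gtpbp1 was called beside Gtpbp2 with no filter, DESeq2, upper-quartile scaling and all 9 libraries in 1 model.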

How the results depend on the processing

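Of the changes of single genes and transcripts that passed the test, none changed direction under any alternative run, and 708 of their values stayed past the threshold while 205 did not. Of those that had not passed, 10 values passed, 42 others moved by at least 1 standard error and some changed sign, none of them called. For the members, RNA of Gtpbp1 in Gtpbp1-/- was called in 13 of 14 alternatives, its footprints in 12 of 12, Gtpbp2 RNA in 12 of 14 and Abce1 RNA in 6 of 14. The counts of whole marker lists were recomputed with DESeq2 alone.

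For Gtpbp1-/- against B6J, 3398 genes were called in RNA (42.6% higher), 2227 with the effective length offset and 3349 with upper-quartile scaling, where 54.9% were higher. Leaving out libraries gave 1890 (without Gtpbp1-/- replicate 2) to 3798, with 1 to 3 members called, and with the offset 1 (Gtpbp2). Footprints gave 104 calls (76.9% higher), 213 without a filter, 406 with DESeq2 (61.8% higher), 202 with all 9 libraries in 1 model and 56 with sex as a covariate (87.5% higher). Left-out libraries gave 22 to 186 (without B6J replicates 1, 2 and 3, 22, 41 and 186, of which 47.8% were higher in the last, and without Gtpbp1-/- replicates 1 and 3, 37 and 182), with 1 member in each. Transcripts gave 484 calls (45.9% higher), 872 with limma-trend (71% higher, 0 of members) and 21 to 161 without a library (21, 104 and 161 without B6J replicates 1, 2 and 3, 61, 30 and 52 without those of Gtpbp1-/-), with 0 of members. TE gave 0 calls, 58 with DESeq2 and 0 to 174 without a library (174 without B6J footprint replicate 3), with 0 to 1 member (Hbs1l).

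For Gtpbp2-/- against B6J, RNA gave 2146 calls (41.8% higher), 3409 with DESeq2, 1071 with sex as a covariate, 1363 with the effective length offset and 2015 with upper-quartile scaling, where 53.3% were higher. Left-out libraries gave 953 to 2357 (953 and 1069 without B6J replicates 1 and 2, 1358 and 979 without Gtpbp2-/- replicates 2 and 3), with 0 members. With counts of protein-coding transcripts alone 1 member was called, Gtpbp2 (-0.61, edgeR adjusted p 0.00967, range over alternatives 0.00967 to 0.396). Mean TPM of those transcripts was 39.1 in B6J and 36.1 in Gtpbp2-/-. Footprints gave 406 calls (43.3% higher), 655 with DESeq2, 268 with all 9 libraries in 1 model, 45 with sex as a covariate (55.6% higher) and 106 to 619 without a library (186 and 619 without B6J replicates 2 and 3, 106 and 151 without Gtpbp2-/- replicates 1 and 2), with 0 members. Transcripts gave 99 calls (61.6% higher), 280 without a filter, 210 with limma-trend (85.2% higher) and 0 to 55 without a library. TE gave 1 call, 2 without a filter, 160 with DESeq2, 0 with sex as a covariate (chosen after seeing the data), 5 with all 18 libraries in 1 model and 0 to 158 without a library (158 without B6J footprint replicate 3).

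Between the mutants, RNA gave 15 calls (26.7% higher in Gtpbp1-/-), 36 without a filter, 46 with DESeq2 (45.7% higher), 9 with sex as a covariate, 5 with protein-coding transcripts alone and 9 (without Gtpbp1-/- replicate 1) to 17 without a library. The 1 member called became 2 without a filter, with DESeq2, with upper-quartile scaling and with all 9 libraries in 1 model (Gtpbp1 and Gtpbp2), 0 with sex as a covariate and with the effective length offset, and 0 to 1 without a library. Footprints gave 0 calls, 15 without a filter, 100 with DESeq2, 3 with upper-quartile scaling, 1 with all 9 libraries in 1 model and 0 to 33 without a library (33 without Gtpbp2-/- replicate 3), with 1 member (Gtpbp1) without a filter and with DESeq2. Transcripts gave 3 calls, 16 without a filter, 5 with limma-trend and 0 to 6 without a library. TE gave 0 calls, 155 with DESeq2 and 0 to 177 without a library (177 without Gtpbp2-/- footprint replicate 3).

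A replicate block, which pairs libraries of the same number, gave 2237 RNA, 44 footprint (90.9% higher) and 0 transcript calls for Gtpbp1-/- (0 transcripts of members), 0 transcript and 0 TE calls for Gtpbp2-/-, and between the mutants 1 footprint and 0 transcript calls and 0 members in RNA. The numbers may pair no mice, since r between libraries of the same number ran from -0.21 to 0.195 in RNA. For all these changes the cause was not tested.

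Footprint depth leaves single genes with few counts (185, 96 and 78 for Gtpbp2 in Gtpbp2-/-), so changes of moderate size can be missed, and more so in TE. Leaving out a library leaves 2 in its group. Sex and genotype are partly confounded, as all Gtpbp2-/- libraries are female. RNA reads of a mutated gene can include what its altered transcripts give, and levels of RNA or footprints do not give levels of protein. Whether any change of a rescue factor offsets the loss of Gtpbp1 or Gtpbp2 was not tested.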
